A study of Homo sapiens with 11 samples.

Results

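Aminoacyl-tRNA synthetases are the enzymes that join each amino acid to its tRNA. The genes were taken as the protein-coding entries of the deposited table whose description holds the words tRNA synthetase, which gave 41 of the 58735 genes listed. Of these, 21 encode cytosolic synthetases or their subunits and 17, whose names end in ARS2, encode mitochondrial synthetases. The remaining 3 are not synthetases themselves: AIMP1 and AIMP2 are scaffold proteins of the multisynthetase complex, and AARSD1 is an editing factor for mischarged alanyl-tRNA. All 41 passed the filter on low counts. The table uses older symbols, so that AARS here is the gene now called AARS1 and TARSL2 the gene now called TARS3.

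HEK293T, a line from human embryonic kidney, was sequenced as polyA RNA in 4 groups that the labels describe as biological replicates. Control cells gave 3 libraries. The other groups were harvested 48 h after transfection with siRNA against NAE1 (siNAE1, 50 nM, 3 libraries), UBE2M (siUBE2M, 70 nM, 3 libraries) or URM1 (siURM1, 60 nM, 2 libraries). The control is labelled as a control siRNA but carries the name HKWT in the supplement of the study, so a response to transfection and a response to the knockdown cannot be told apart with certainty. The siRNAs were used at different doses, and dose and target cannot be told apart in comparisons between knockdowns. NAE1 is the regulatory subunit of an E1 enzyme and UBE2M an E2 enzyme, and the study asked whether they act on URM1, a ubiquitin-like protein.

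Most synthetases recognise a single amino acid and its matching tRNAs, and class I and class II enzymes differ in the fold of the catalytic core. Mitochondria use their own set of enzymes encoded in the nucleus, although GARS and KARS serve both compartments from a single gene. Transcription of many cytosolic synthetase genes rises with the stress factor ATF4 when amino acids run short. URM1 is also a sulfur carrier for the thiolation of the wobble uridine in the tRNAs for lysine, glutamine and glutamate, which are the substrates of KARS, QARS and EPRS.

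Total counts per library ranged from 11733163 to 16321391. The SE beside a log2 fold change comes from the fit over replicates. NAE1 fell by 1.36 ± 0.08 (log2 fold change ± SE) in siNAE1 cells, UBE2M by 3.98 ± 0.08 in siUBE2M cells and URM1 by 1.80 ± 0.10 in siURM1 cells. All 7 markers of HEK293T had at least 59 counts in every library, and their summed FPKM ranged from 90.8 to 97.4 in control, from 136 to 145 in siNAE1, from 110 to 129 in siUBE2M and from 139 to 154 in siURM1 libraries. The 6 hepatocyte markers, for the HepG2 line that the study also used, summed to between 0.0595 and 0.347 FPKM in any library, with APOB and SERPINA1 at 0 throughout.

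In control cells the cytosolic synthetases were expressed at a median of 54.6 FPKM (fragments scaled by gene length and library total, from the authors), against 11.3 FPKM for the mitochondrial ones. SARS, which charges serine, had the highest level with 171 ± 4.88 FPKM (SD, n = 3). IARS, AARS, GARS and YARS followed with means of 124, 117, 115 and 106 FPKM. AARS and GARS lay within their spread of each other (SD 2.45 and 3.52), whereas SARS stood clear of IARS (SD 4.63). At the lower end were HARS with 7.48 ± 0.409 FPKM and TARSL2, a second threonyl-tRNA synthetase, with 5.61 ± 0.193 FPKM. Among mitochondrial genes IARS2 had the highest level, 62.1 ± 3.38 FPKM, above the cytosolic median. SARS2 had the lowest with 1.26 ± 0.217 FPKM, and 15493 bases of it lie inside a longer gene on the same strand, so its count is uncertain. AIMP2 stood at 39.5 ± 0.299, AIMP1 at 22.6 ± 1.03 and AARSD1, which lies wholly within a same-strand readthrough gene, at 1.70 ± 0.332 FPKM.

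**Figure D1:**
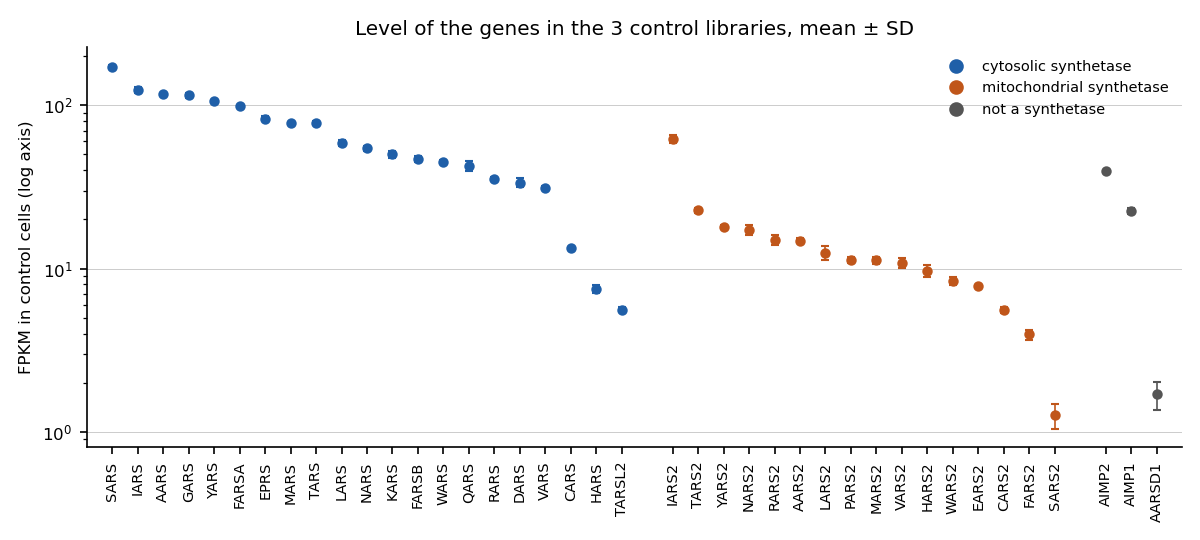
Mean level of the genes in the 3 control libraries in FPKM on a log axis, with bars for the SD, ordered within the cytosolic synthetases, the mitochondrial synthetases and the 3 genes that are not synthetases. Most cytosolic genes lie above the mitochondrial ones, with IARS2 (62.1 FPKM) as the highest mitochondrial gene and CARS, HARS and TARSL2 as the lowest cytosolic ones.

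Taken 1 knockdown at a time, most cytosolic synthetase genes were lower, and 10 of the 21 were lower in all 3 knockdowns. Genes of mitochondrial synthetases moved in either direction. In siNAE1 cells 15 of the 21 cytosolic genes were lower and 2 were higher at an adjusted p under 0.05 (edgeR quasi-likelihood test), where 27.1% of all 18368 genes tested were lower and 27.6% higher. In siUBE2M cells 12 were lower and 4 higher, against 22.6% and 22.7% of all genes. In siURM1 cells 15 were lower and 3 higher, against 20.8% in each direction. Median log2 fold changes of the cytosolic genes were -0.64, -0.33 and -0.40 in siNAE1, siUBE2M and siURM1 cells, beside medians over all genes tested of 0.00, 0.01 and -0.02. Since these are bulk samples, fewer cells that express a gene and less RNA per cell cannot be told apart.

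The mitochondrial genes had medians of 0.11, -0.14 and 0.06 in the same order. The siNAE1 median was 0.03 without siNAE1 replicate 2, and the siURM1 median 0.00 without siURM1 replicate 1 and 0.15 without siURM1 replicate 2. Of the 17 genes 7 rose and 4 fell in siNAE1 cells, 4 rose and 7 fell in siUBE2M cells, and 6 rose and 2 fell in siURM1 cells. The shares of all genes were 27.6% and 27.1%, 22.7% and 22.6%, and 20.8% and 20.8%, and 4 of 17 lies near them. The last counts rest on few libraries: without siURM1 replicate 2, 2 were called higher and 1 lower, and the siURM1 median of the cytosolic genes was -0.29. Summed over the 21 cytosolic genes, CPM (counts scaled to a common library size with TMM factors) were 7401 ± 67.7 in control (SD, n = 3), 4509 ± 113 in siNAE1 (n = 3), 6147 ± 132 in siUBE2M (n = 3) and 5384 ± 19.5 in siURM1 cells (n = 2). No knockdown library overlapped the control range of 7325 to 7454 CPM. The mitochondrial sums ran from 1061 to 1219 CPM over all libraries, with control at 1126 ± 15.9, siNAE1 at 1177 ± 36.4, siUBE2M at 1072 ± 10.1 and siURM1 at 1189 ± 24.0 CPM. These groups did not overlap the control range of 1108 to 1139 CPM either. The siNAE1 (1156 to 1219) and siURM1 libraries (1172 to 1206) lay above it, and the siUBE2M libraries (1061 to 1080) below it.

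**Figure D2:**
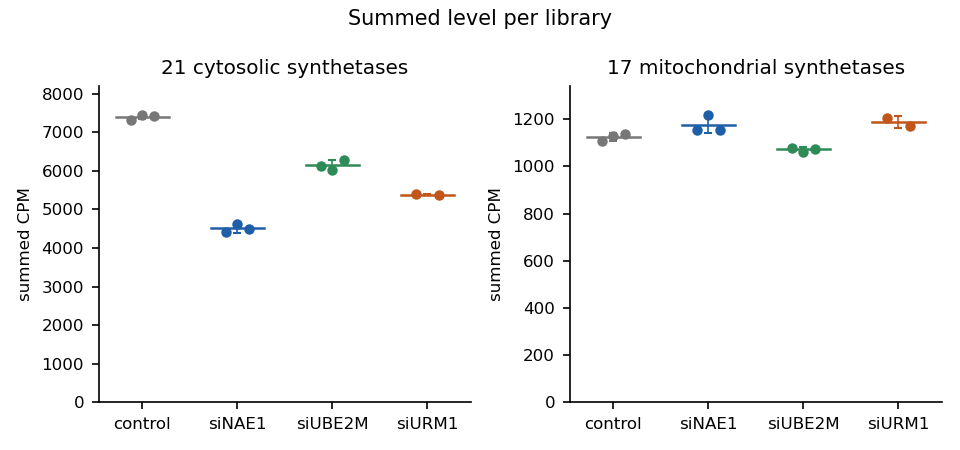
Summed CPM of the 21 cytosolic and the 17 mitochondrial synthetase genes in each of the 11 libraries (points), with the group mean (line) and SD (bar), on axes from 0. Cytosolic sums fall from 7401 CPM in control to 4509 in siNAE1 cells. Mitochondrial sums range from 1061 to 1219 CPM, with siNAE1 and siURM1 libraries above control and siUBE2M libraries below it.

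**Figure D3:**
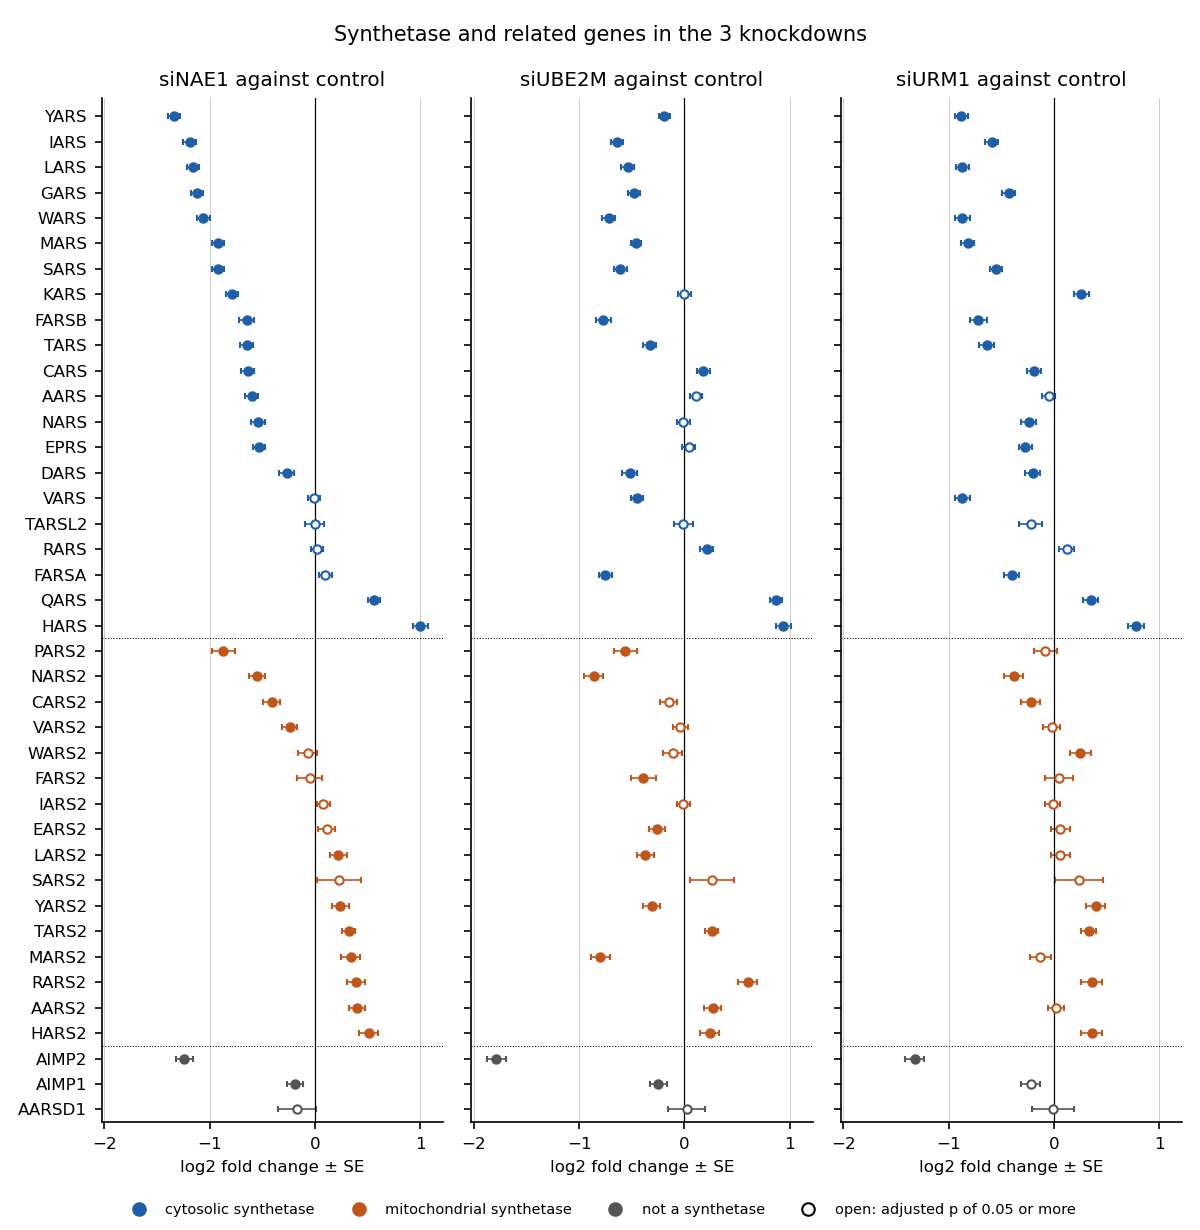
Log2 fold change against control with its SE for the genes in siNAE1, siUBE2M and siURM1 cells, ordered by the siNAE1 value within each kind; filled points have an adjusted p under 0.05. Most cytosolic genes lie left of 0, HARS and QARS lie right of 0 in the 3 panels, and AIMP2 is the lowest point in siUBE2M (-1.79) and siURM1 (-1.32) cells.

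With a change of at least 2-fold added to the call, 5 cytosolic synthetases and AIMP2 were lower in siNAE1 cells and no gene of the 41 was higher, where 8.61% of all genes were lower and 5.3% higher by this rule. AIMP2 alone was lower in siUBE2M cells (3.89% of all genes lower, 3.22% higher) and in siURM1 cells (4.73% lower, 2.89% higher). HARS missed the fold threshold in siNAE1 cells with a log2 fold change of 0.996.

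YARS, which charges tyrosine (chr1:32775237-32818153, GRCh38, as are all gene positions here), showed the greatest drop of the synthetases in siNAE1 cells. Its CPM were 864, 892 and 865 in the control libraries, 337, 345 and 355 in siNAE1, 757, 752 and 789.9 in siUBE2M, and 459 and 489 in siURM1. The 3 siUBE2M libraries lay just under the control range, and the siNAE1 and siURM1 libraries far below it. Log2 fold changes were -1.34 ± 0.06 in siNAE1 (adjusted p = 4.3e-19), -0.19 ± 0.05 in siUBE2M (adjusted p = 0.0049) and -0.88 ± 0.06 in siURM1 libraries (adjusted p = 7.0e-13). S100PBP, which shares 1387 bases with YARS on the opposite strand, was at -0.43 ± 0.07, -0.23 ± 0.07 and -0.48 ± 0.08, and its part in the YARS counts was not tested.

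IARS, the isoleucine enzyme (chr9:92210207-92293756), had 913, 896 and 963 CPM in control and 420.1, 406 and 385 CPM in siNAE1 libraries. It had 621, 591 and 567 CPM in siUBE2M and 624 and 604 CPM in siURM1 libraries. No knockdown library reached the control range, and siUBE2M and siURM1 libraries overlapped each other. The drops were -1.19 ± 0.06, -0.64 ± 0.06 and -0.59 ± 0.06 in the 3 knockdowns (adjusted p = 1.8e-17, 7.4e-11 and 6.7e-09). LARS, the leucine enzyme and a leucine sensor of mTORC1 signalling (chr5:146113038-146182660), had 461, 483 and 494 CPM in control, 222, 214 and 207 in siNAE1, 337, 333 and 319 in siUBE2M, and 267 and 259 in siURM1 libraries. Its groups were fully separated from control and from each other, with changes of -1.16 ± 0.06, -0.54 ± 0.06 and -0.87 ± 0.06 (adjusted p = 2.8e-17, 2.1e-09 and 1.9e-12).

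GARS (chr7:30594681-30634033), which makes glycyl-tRNA for cytosol and mitochondria, had 471, 496 and 483 CPM in control and 223, 223 and 222 CPM in siNAE1 libraries. Values of 347, 325 and 366 CPM in siUBE2M and 349 and 371 CPM in siURM1 libraries lay between these groups. Its log2 fold changes were -1.12 ± 0.06, -0.48 ± 0.06 and -0.43 ± 0.06 (adjusted p = 1.2e-16, 2.6e-08 and 2.5e-06). WARS (chr14:100333788-100376805), the tryptophan enzyme and a gene known to be induced by interferon, had 283, 294 and 286 CPM in control, 136, 141 and 136 in siNAE1, 175, 166 and 182 in siUBE2M, and 158 and 157 in siURM1 libraries. All knockdown libraries lay below control, with changes of -1.06 ± 0.06, -0.72 ± 0.06 and -0.87 ± 0.07 (adjusted p = 5.4e-16, 8.2e-12 and 3.2e-12). WDR25, which shares 388 bases with WARS on the opposite strand, was at -0.50 ± 0.15, -0.16 ± 0.15 and -0.17 ± 0.16, and its part in the WARS counts was not tested.

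**Figure D4:**
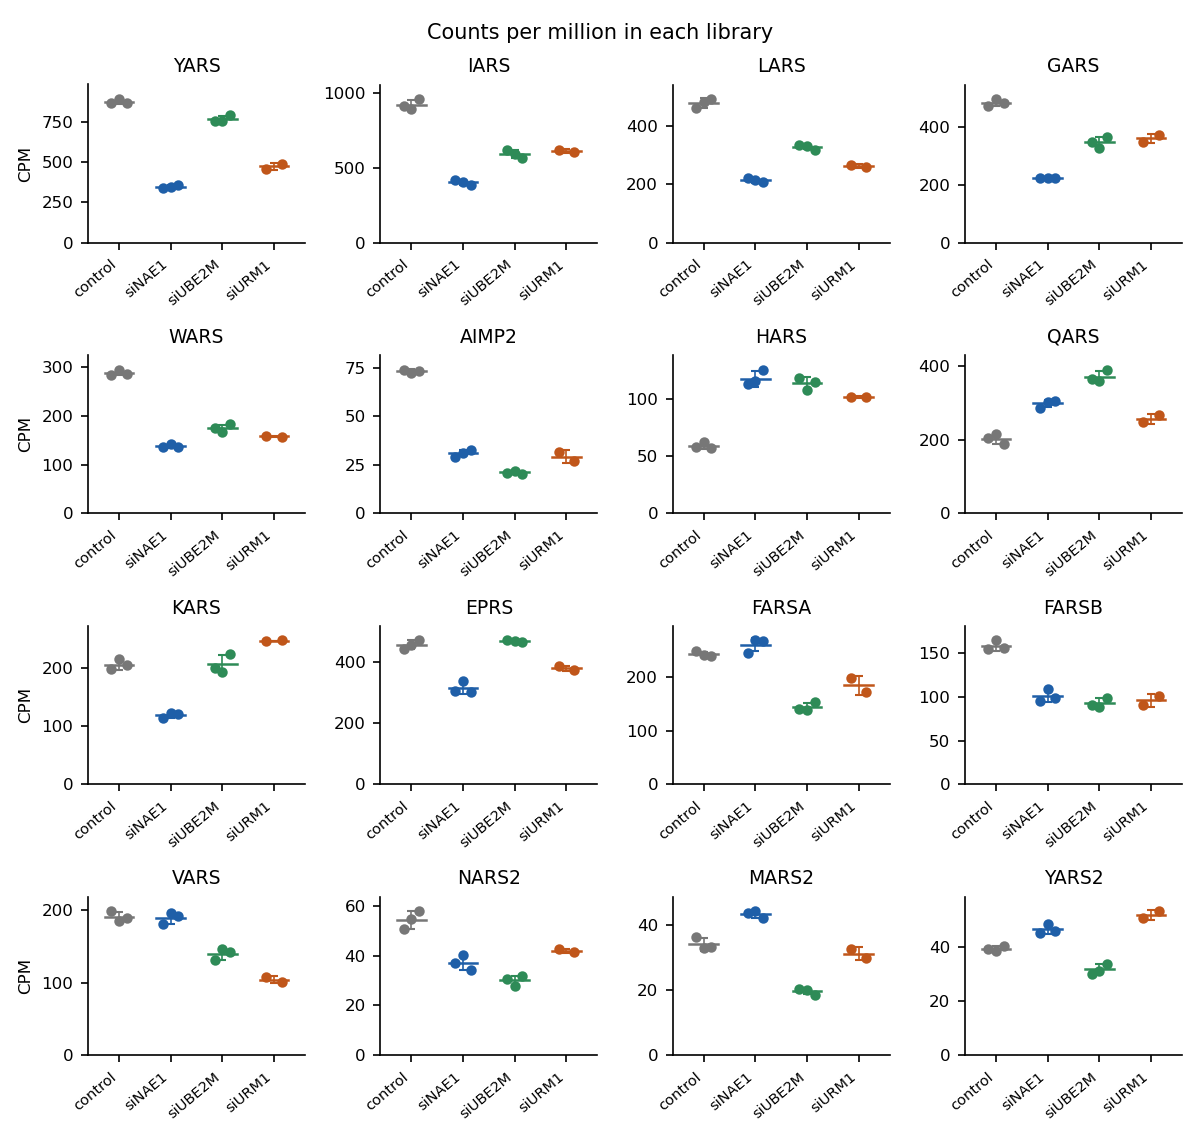
CPM in each library (points) for 16 of the genes, with the group mean (line) and SD (bar), each on its own axis from 0. YARS, IARS, LARS, GARS, WARS and AIMP2 lie below control in all knockdowns and HARS and QARS above it, while KARS, FARSA, VARS, MARS2 and YARS2 differ between knockdowns.

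Altogether 10 of the 21 cytosolic genes passed the test as lower in each knockdown, where 9.62% of all genes tested did: DARS, FARSB, GARS, IARS, LARS, MARS, SARS, TARS, WARS and YARS. SARS fell to 52.9%, 65.6% and 68.1% of its control CPM in siNAE1, siUBE2M and siURM1 cells. MARS, which charges both initiator and elongator methionine tRNAs, stood at 53.0%, 72.7% and 56.7%, but it shares 982 bases on the opposite strand with DDIT3, a gene that was itself lower (-1.82 ± 0.12, -0.91 ± 0.11 and -0.75 ± 0.12). The study made its libraries with dUTP in the second cDNA strand, which keeps the strand of each read. The sources used here do not give the strand setting of the counting, and the part of DDIT3 reads in the MARS counts was not tested. DDIT3 had 9.16 to 43.4 CPM per library, against 284 to 564 CPM for MARS. TARS, the main threonine enzyme, stood at 63.8%, 79.3% and 64.3% of control, and DARS, the aspartate enzyme, at 82.7%, 69.5% and 87.3%. The siURM1 call of DARS (adjusted p = 0.031) was lost without control replicate 2 or 3, siUBE2M replicate 1 or either siURM1 library (adjusted p from 0.056 to 0.20), and the count of cytosolic genes lower in siURM1 cells fell from 15 to as low as 12. The other 9 genes stayed lower in each knockdown whichever library was left out. Of the 41 genes 25 overlap a listed gene on the opposite strand and 14 one on the same strand, and 16 of 18 related pseudogenes had under 20 counts in every library.

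A list of 12 cytosolic synthetases known to respond to ATF4 (AARS, CARS, EPRS, GARS, IARS, LARS, MARS, NARS, SARS, TARS, WARS and YARS) was counted separately. All 12 were lower in siNAE1 cells with a median of -0.92, 8 were lower and 1 (CARS) higher in siUBE2M cells with a median of -0.40, and 11 were lower in siURM1 cells with a median of -0.57. The 9 cytosolic genes outside the list had medians of 0.00, -0.01 and -0.20, with 3, 4 and 4 of them lower and 2, 3 and 3 higher. Over all genes tested 27.1%, 22.6% and 20.8% were lower and 27.6%, 22.7% and 20.8% higher, and the siNAE1 counts of these 9 genes lie near those shares. ATF4 itself had 848, 894 and 813 CPM in control, 1289, 1397 and 1374 in siNAE1, 1327, 1270.1 and 1421 in siUBE2M, and 926 and 974 in siURM1 libraries. Its transcript was thus higher in siNAE1 (0.67 ± 0.06, adjusted p = 2.4e-11) and siUBE2M cells (0.65 ± 0.06, adjusted p = 8.5e-11), with 0.16 ± 0.07 (adjusted p = 0.051) in siURM1 cells. ATF4 protein was not measured in these libraries, and its part in the synthetase values was not tested.

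The DNA element bound by C/EBP and ATF factors, TGATGNAA, was looked for on both strands in RefSeq promoter windows (GRCh38.p14, from 250 bases before to 50 after the start), since many of these genes moved together. Windows were matched for 33 of the 41 genes, and AARS2, DARS, LARS, TARSL2, VARS, VARS2 and YARS were among those not matched. It was present in 6 of 16 cytosolic windows (37.5%), in 1 of 14 mitochondrial windows (7.14%) and in 0 of the 3 others, while 3.62% of all 35116 windows hold it. The narrower spelling TGATGCAA was present in the same 6 cytosolic windows and in 0 of 14 mitochondrial ones, against 0.866% of all windows. Stretches of 30 bases around each match follow, with the motif or its reverse complement in capitals, read 5′ to 3′ along the strand of the gene.
AARS, chr16:70289675-70289704, minus strand: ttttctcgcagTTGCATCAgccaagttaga
CARS, chr11:3057407-3057436, minus strand: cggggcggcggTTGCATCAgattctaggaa
IARS, chr9:92293692-92293721, minus strand: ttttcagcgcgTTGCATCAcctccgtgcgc
MARS, chr12:57488053-57488082, plus strand: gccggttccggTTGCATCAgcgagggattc
NARS, chr18:57621804-57621833, minus strand: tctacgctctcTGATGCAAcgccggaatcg
TARS, chr5:33440956-33440985, plus strand: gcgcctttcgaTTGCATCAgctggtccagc
YARS2, chr12:32756076-32756105, minus strand: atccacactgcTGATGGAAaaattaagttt

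Counted with the first transcribed base as 0, the match began at -13 in IARS, -4 in MARS, -2 in CARS, 2 in TARS and 14 in NARS, but at -187 in AARS and -197 in YARS2. In 5 of the 6 cytosolic windows the match thus began within 20 bases of the start. The 6 cytosolic genes with a match were lower in siNAE1 cells by between -0.54 (NARS) and -1.19 (IARS), as were 6 of the 10 cytosolic genes whose windows lack it and 27.1% of all genes tested. In siUBE2M cells IARS, MARS and TARS were lower and CARS was higher, with 0.11 ± 0.06 for AARS and -0.01 ± 0.06 for NARS. Of the 10 cytosolic genes whose windows lack a match, 5 were lower and 3 higher there, beside 22.6% and 22.7% of all genes. In siURM1 cells CARS, IARS, MARS, NARS and TARS were lower, by between -0.19 and -0.82, and AARS was at -0.05 ± 0.06. Of the 10 without a match, 6 were lower and 3 higher in siURM1 cells, beside 20.8% of all genes in each direction. FARSB, GARS, SARS and WARS were lower in each knockdown, and their windows did not hold these letters. A match is a description of letters, and binding was not measured.

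HARS and QARS were the cytosolic genes that rose in each knockdown. HARS, the histidine enzyme (chr5:140673904-140691862), had 57.8, 62.7 and 57.2 CPM in control, 113, 116 and 126 in siNAE1, 119, 108 and 115 in siUBE2M, and 102 and 102 in siURM1 libraries. Every knockdown library lay above every control library. Log2 fold changes were 1.00 ± 0.07 in siNAE1 (adjusted p = 1.4e-13), 0.94 ± 0.07 in siUBE2M (adjusted p = 1.1e-12) and 0.78 ± 0.08 in siURM1 libraries (adjusted p = 6.0e-10). Its mitochondrial counterpart HARS2 (chr5:140691426-140699318) lies next to it on the opposite strand and shares 437 bases with it. Reads from either could be counted for the other if the counting did not use the strand that the dUTP libraries keep. HARS also shares 221 bases with WDR55 on the opposite strand, which was higher in siNAE1 (0.87 ± 0.08) and siUBE2M cells (0.95 ± 0.08) and stood at 0.18 ± 0.09 in siURM1 cells. HARS2 shares 639 bases with ZMAT2 on the same strand, which was at 0.66 ± 0.09, 0.23 ± 0.09 and 0.04 ± 0.10 in the same order. The part of these neighbours in the HARS and HARS2 counts was not tested. HARS2 had 36.0, 39.8 and 33.8 CPM in control, 51.1, 50.3 and 54.8 in siNAE1, 41.4, 41.5 and 46.8 in siUBE2M, and 43.3 and 50.6 in siURM1 libraries. It too lay above control throughout, by 0.51 ± 0.09 (adjusted p = 7.8e-06), 0.24 ± 0.09 (adjusted p = 0.023) and 0.36 ± 0.10 (adjusted p = 0.0026). The siUBE2M call of HARS2 was lost without control replicate 1, control replicate 3 or siUBE2M replicate 3 (adjusted p = 0.058, 0.11 and 0.12), and the siURM1 call without siURM1 replicate 2 (adjusted p = 0.11).

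The 3 enzymes whose tRNAs carry the URM1-dependent thiolation did not move together. QARS, the glutamine enzyme (chr3:49095932-49105135), had 205, 215 and 189 CPM in control, 288, 304 and 307 in siNAE1, 365, 361 and 391 in siUBE2M, and 249 and 268 in siURM1 libraries. It was above control in every knockdown library, by 0.56 ± 0.06, 0.87 ± 0.06 and 0.35 ± 0.07 (adjusted p = 2.8e-09, 3.7e-13 and 9.9e-05). KARS, the lysine enzyme of cytosol and mitochondria (chr16:75627474-75648643), had 198, 216 and 205 CPM in control, 114, 123 and 121 in siNAE1, 201, 194 and 225 in siUBE2M, and 247 and 248 in siURM1 libraries. It was thus lower in siNAE1 cells (-0.79 ± 0.06, adjusted p = 4.8e-12) and higher in siURM1 cells (0.26 ± 0.07, adjusted p = 0.0028), and siUBE2M libraries overlapped control (0.00 ± 0.06, adjusted p = 0.98). TERF2IP, which shares 858 bases with KARS on the opposite strand, was at 0.30 ± 0.07, -0.30 ± 0.07 and -0.36 ± 0.08, and its part in the KARS counts was not tested.

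EPRS, which joins glutamate and proline activity in 1 chain (chr1:219968601-220046658), had 441, 455 and 469 CPM in control, 304, 338 and 301 in siNAE1, 469, 467 and 465 in siUBE2M, and 384 and 372 in siURM1 libraries. The siNAE1 and siURM1 libraries lay below control (-0.53 ± 0.06, adjusted p = 2.0e-09, and -0.27 ± 0.06, adjusted p = 0.00098), while siUBE2M libraries overlapped it (0.04 ± 0.06, adjusted p = 0.62). In siURM1 cells 2 of the 3 enzymes were therefore higher and 1 lower, where 20.8% of all genes were called in each direction. With URM1 itself lowered to 28.6% of control, no member of this trio changed by more than 0.35 on the log2 scale.

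Phenylalanyl-tRNA synthetase is built from an alpha subunit, FARSA, and a beta subunit, FARSB, in equal numbers. FARSA (chr19:12922479-12934037) had 248, 241 and 239 CPM in control, 245, 268 and 267 in siNAE1, 141, 139 and 153 in siUBE2M, and 197 and 171 in siURM1 libraries. FARSB (chr2:222570536-222656337) had 155, 165 and 156 CPM in control, 96.0, 109 and 99.2 in siNAE1, 90.9, 88.6 and 99.2 in siUBE2M, and 90.9 and 101 in siURM1 libraries. The beta subunit was lower in each knockdown (-0.65 ± 0.07, -0.77 ± 0.07 and -0.72 ± 0.08, adjusted p = 1.3e-09, 6.3e-11 and 3.9e-09). The alpha subunit was lower in siUBE2M (-0.75 ± 0.06, adjusted p = 2.7e-11) and siURM1 cells (-0.40 ± 0.07, adjusted p = 3.0e-05), and its siNAE1 libraries overlapped control (0.10 ± 0.06, adjusted p = 0.18).

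VARS, the valine enzyme (chr6:31777518-31795953), had 199, 185 and 189 CPM in control and 181, 197 and 192 CPM in siNAE1 libraries, which overlapped. It had 131, 146 and 143 CPM in siUBE2M and 108 and 101 CPM in siURM1 libraries, all below control. The siUBE2M change was -0.45 ± 0.06 (adjusted p = 5.7e-07) and the siURM1 change -0.87 ± 0.07 (adjusted p = 2.2e-11), with -0.01 ± 0.06 (adjusted p = 0.92) in siNAE1 cells. CARS, the cysteine enzyme, was lower in siNAE1 (-0.64 ± 0.06) and siURM1 cells (-0.19 ± 0.07) and higher in siUBE2M cells (0.18 ± 0.06), with adjusted p = 3.8e-10, 0.029 and 0.016. The siURM1 call of CARS was lost without any 1 of the control libraries, siUBE2M replicate 1 or either siURM1 library (adjusted p from 0.055 to 0.18), and the siUBE2M call without siUBE2M replicate 1 or 3 (adjusted p from 0.055 to 0.058). AARS and NARS, for alanine and asparagine, were lower in siNAE1 cells by -0.60 ± 0.06 and -0.54 ± 0.07, and NARS also in siURM1 cells by -0.24 ± 0.07, a call that was lost without siURM1 replicate 1 (adjusted p = 0.12). RARS, the arginine enzyme, was higher in siUBE2M cells (0.21 ± 0.06, adjusted p = 0.0059), and TARSL2 passed the test in no knockdown.

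By catalytic class, 7 of 10 class I and 8 of 11 class II cytosolic genes were lower in siNAE1 cells, 6 and 6 in siUBE2M cells, and 8 and 7 in siURM1 cells, where 27.1%, 22.6% and 20.8% of all genes were. Higher were 1 and 1, 3 and 1, and 1 and 2 genes, where 27.6%, 22.7% and 20.8% of all genes were. Medians were -0.78 and -0.60 in siNAE1, -0.32 and -0.33 in siUBE2M, and -0.70 and -0.24 in siURM1 cells for class I and class II. EPRS, which holds a domain of either class, was counted with class I.

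The multisynthetase complex gathers 8 cytosolic enzymes (DARS, EPRS, IARS, KARS, LARS, MARS, QARS and RARS) around the scaffolds AIMP1, AIMP2 and EEF1E1. Of the 8 enzymes 6, 4 and 5 were lower and 1, 2 and 2 higher in siNAE1, siUBE2M and siURM1 cells, with medians of -0.66, -0.23 and -0.23. The 13 cytosolic genes outside it had 9, 8 and 10 lower and 1, 2 and 1 higher, with medians of -0.64, -0.33 and -0.43. Over all genes 27.1%, 22.6% and 20.8% were lower and 27.6%, 22.7% and 20.8% higher, so that the counts of higher genes lie near or below the background. AIMP2 (chr7:6009245-6023834), the scaffold that holds the complex together, had 74.0, 72.3 and 73.4 CPM in control, 29.3, 31.3 and 32.6 in siNAE1, 20.9, 21.9 and 20.5 in siUBE2M, and 31.7 and 26.8 in siURM1 libraries. All 8 knockdown libraries lay under 33 CPM, and all controls above 72 CPM. Its changes of -1.24 ± 0.08, -1.79 ± 0.09 and -1.32 ± 0.09 (adjusted p = 5.1e-14, 3.8e-17 and 7.0e-13) were the lowest of the 41 genes in siUBE2M and siURM1 cells, and YARS was lower in siNAE1 cells.

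The other scaffolds moved less. AIMP1 was at -0.19 ± 0.08 in siNAE1 (adjusted p = 0.043) and -0.25 ± 0.08 in siUBE2M cells (adjusted p = 0.011), with -0.22 ± 0.09 (adjusted p = 0.052) in siURM1 cells. Its siNAE1 call was lost without replicate 1 or 2 of control, siNAE1 or siUBE2M (adjusted p from 0.051 to 0.15), and its siUBE2M call without control replicate 2 (adjusted p = 0.063). TBCK, which shares 5952 bases with AIMP1 on the opposite strand, was at -0.54 ± 0.11, -0.46 ± 0.10 and -0.77 ± 0.12, and its part in the AIMP1 counts was not tested. EIF2AK1, which shares 1591 bases with AIMP2 on the opposite strand, was at 0.34 ± 0.06, 0.05 ± 0.06 and 0.24 ± 0.06, and its part in the AIMP2 counts was not tested. EEF1E1, whose description does not place it among the 41, was higher in siNAE1 cells (0.34 ± 0.09, adjusted p = 0.0026) and did not pass the test in siUBE2M (-0.23 ± 0.10) or siURM1 cells (-0.13 ± 0.11). The editing factor AARSD1 stood at -0.17 ± 0.18, 0.02 ± 0.18 and -0.01 ± 0.20, with overlapping libraries throughout.

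Among mitochondrial synthetases, NARS2 was lower in each knockdown, and HARS2, RARS2 and TARS2 were higher in each. NARS2 (chr11:78435961-78574874), the mitochondrial asparagine enzyme, had 51.0, 54.9 and 58.1 CPM in control, 37.1, 40.2 and 34.2 in siNAE1, 30.6, 28.0 and 31.8 in siUBE2M, and 42.6 and 41.4 in siURM1 libraries. The groups did not overlap control, and the changes were -0.55 ± 0.08, -0.86 ± 0.09 and -0.38 ± 0.09 (adjusted p = 1.4e-06, 7.6e-10 and 0.0013). PARS2, the mitochondrial proline enzyme (chr1:54756898-54764514), had 28.4, 25.6 and 26.4 CPM in control, 16.4, 13.9 and 13.8 in siNAE1, 20.2, 16.7 and 17.6 in siUBE2M, and 23.4 and 27.4 in siURM1 libraries. It was lower in siNAE1 (-0.87 ± 0.11, adjusted p = 5.2e-08) and siUBE2M cells (-0.56 ± 0.11, adjusted p = 5.6e-05), and the siURM1 libraries overlapped control (-0.08 ± 0.11).

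CARS2 (chr13:110641412-110713603), for mitochondrial cysteine, had 58.5, 61.6 and 56.4 CPM in control, 45.0, 47.1 and 40.5 in siNAE1, 52.1, 55.3 and 51.9 in siUBE2M, and 50.9 and 50.2 in siURM1 libraries. The siNAE1 change was -0.41 ± 0.08 (adjusted p = 4.0e-05) and the siUBE2M change -0.15 ± 0.08 (adjusted p = 0.12). The siURM1 change of -0.22 ± 0.09 (adjusted p = 0.039) was no longer called when control replicate 1 or 2, siUBE2M replicate 1 or 2, or either siURM1 library was left out (adjusted p from 0.058 to 0.17). VARS2 was lower in siNAE1 cells (-0.24 ± 0.07, adjusted p = 0.0054).

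RARS2, the mitochondrial arginine enzyme (chr6:87514378-87590003), had 36.1, 38.4 and 41.0 CPM in control, 44.9, 58.5 and 47.8 in siNAE1, 56.8, 55.3 and 62.5 in siUBE2M, and 46.7 and 52.1 in siURM1 libraries. All knockdown libraries lay above control, by 0.39 ± 0.09, 0.60 ± 0.09 and 0.36 ± 0.10 (adjusted p = 0.00049, 1.9e-06 and 0.0042). Without siURM1 replicate 2 the siURM1 call was lost (adjusted p = 0.089). TARS2, for mitochondrial threonine, was above control in all libraries by 0.32 ± 0.06, 0.26 ± 0.06 and 0.33 ± 0.07. AARS2 (chr6:44299654-44313326), for mitochondrial alanine, had 66.3, 64.9 and 61.3 CPM in control, 81.2, 81.7 and 90.8 in siNAE1, 75.5, 76.9 and 79.8 in siUBE2M, and 70.8 and 59.4 in siURM1 libraries. It was higher in siNAE1 (0.40 ± 0.08, adjusted p = 3.9e-05) and siUBE2M cells (0.27 ± 0.08, adjusted p = 0.0036), and the siURM1 libraries spanned the control range.

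MARS2, YARS2 and LARS2 were called in opposite directions by different knockdowns. MARS2 (chr2:197705369-197708387), for mitochondrial methionine, had 36.5, 33.0 and 33.2 CPM in control, 43.7, 44.4 and 42.2 in siNAE1, 20.5, 19.9 and 18.6 in siUBE2M, and 32.7 and 29.9 in siURM1 libraries. It was above control in siNAE1 (0.34 ± 0.09, adjusted p = 0.00099) and below it in siUBE2M cells (-0.80 ± 0.09, adjusted p = 1.1e-08), with -0.13 ± 0.10 (adjusted p = 0.30) in siURM1 cells. YARS2, for mitochondrial tyrosine (chr12:32727490-32755902), had 39.0, 38.2 and 40.3 CPM in control, 45.2, 48.2 and 45.8 in siNAE1, 30.0, 31.1 and 33.6 in siUBE2M, and 50.5 and 53.1 in siURM1 libraries. It was higher in siNAE1 (0.24 ± 0.08, adjusted p = 0.010) and siURM1 cells (0.40 ± 0.09, adjusted p = 0.00031) and lower in siUBE2M cells (-0.31 ± 0.08, adjusted p = 0.0022). YARS2 shares 18161 bases with DNM1L on the opposite strand, which was at 0.27 ± 0.06, 0.30 ± 0.06 and 0.33 ± 0.07, and its part in the YARS2 counts was not tested. LARS2, for mitochondrial leucine, was higher in siNAE1 (0.22 ± 0.08, adjusted p = 0.023) and lower in siUBE2M cells (-0.37 ± 0.08, adjusted p = 0.00036), and its siNAE1 call was lost without control replicate 1 or 2 or siNAE1 replicate 1 (adjusted p from 0.052 to 0.14).

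Of the other mitochondrial genes, EARS2 and FARS2 were lower in siUBE2M cells (-0.26 ± 0.08 and -0.39 ± 0.12), calls that were lost without siUBE2M replicate 3 and siUBE2M replicate 2 (adjusted p = 0.067 and 0.084). WARS2 was higher in siURM1 cells (0.25 ± 0.10, adjusted p = 0.046), which was lost without control replicate 1 or 3 or either siURM1 library (adjusted p from 0.097 to 0.17). IARS2, the most abundant of the mitochondrial genes, stayed within 0.08 of control on the log2 scale in each group, and SARS2 had 0.23 ± 0.21, 0.26 ± 0.21 and 0.24 ± 0.23. Over the 41 genes, 12 were lower in each knockdown and 5 higher in each, where 9.62% and 9.3% of all genes tested were. A further 5 were called in opposite directions and 4 (AARSD1, IARS2, SARS2 and TARSL2) passed the test in none, beside 6.69% and 26.0% of all genes. The 3 comparisons share their control libraries, so the calls are not independent of each other.

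Knockdowns were also tested against each other in the same fit. Between siNAE1 and siUBE2M, 11 of the 41 genes were higher and 18 lower in siNAE1 cells, where 22.7% and 21.6% of all genes were. Of the cytosolic ones 15 were lower and 3 higher in siNAE1 cells, and of the mitochondrial ones 3 were lower and 7 higher. The calls of CARS2, FARS2, HARS2, NARS2, PARS2, RARS and VARS2 were each lost when some siNAE1 or siUBE2M library was left out. All 12 genes of the ATF4 list were lower in siNAE1 than in siUBE2M cells. YARS differed most among them (-1.15 ± 0.06, adjusted p = 9.0e-17), followed by CARS (-0.82 ± 0.06, adjusted p = 4.2e-12). FARSA (0.85 ± 0.06, adjusted p = 2.2e-12) and MARS2 (1.14 ± 0.09, adjusted p = 6.9e-12) were higher in siNAE1 cells.

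Between siNAE1 and siURM1, 6 genes were higher and 15 lower in siNAE1 cells (19.5% and 19.1% of all genes). The calls of HARS, VARS2 and WARS2 were each lost without some siNAE1 library. KARS differed most, by -1.05 ± 0.07 (adjusted p = 2.0e-13), and VARS lay the other way, by 0.86 ± 0.07 (adjusted p = 4.1e-11). GARS and IARS were lower in siNAE1 cells by -0.69 ± 0.06 and -0.60 ± 0.06, whereas MARS (-0.10 ± 0.06, adjusted p = 0.22) and TARS (-0.01 ± 0.06, adjusted p = 0.91) did not pass the test. Between siUBE2M and siURM1, 11 genes were higher and 13 lower in siUBE2M cells (16.7% and 18.3% of all genes). Here 10 cytosolic genes were higher and 3 lower, and 1 mitochondrial gene was higher and 9 were lower. The AARS call (adjusted p = 0.048) was lost without any 1 of the control or siUBE2M libraries. That of AARS2, the mitochondrial gene that was higher, was lost without siUBE2M replicate 3. YARS (0.69 ± 0.06, adjusted p = 2.2e-10) and QARS (0.53 ± 0.07, adjusted p = 3.0e-07) were higher in siUBE2M cells, and YARS2 (-0.71 ± 0.09, adjusted p = 1.2e-07) and MARS2 (-0.67 ± 0.10, adjusted p = 3.3e-06) were lower.

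**Figure D5:**
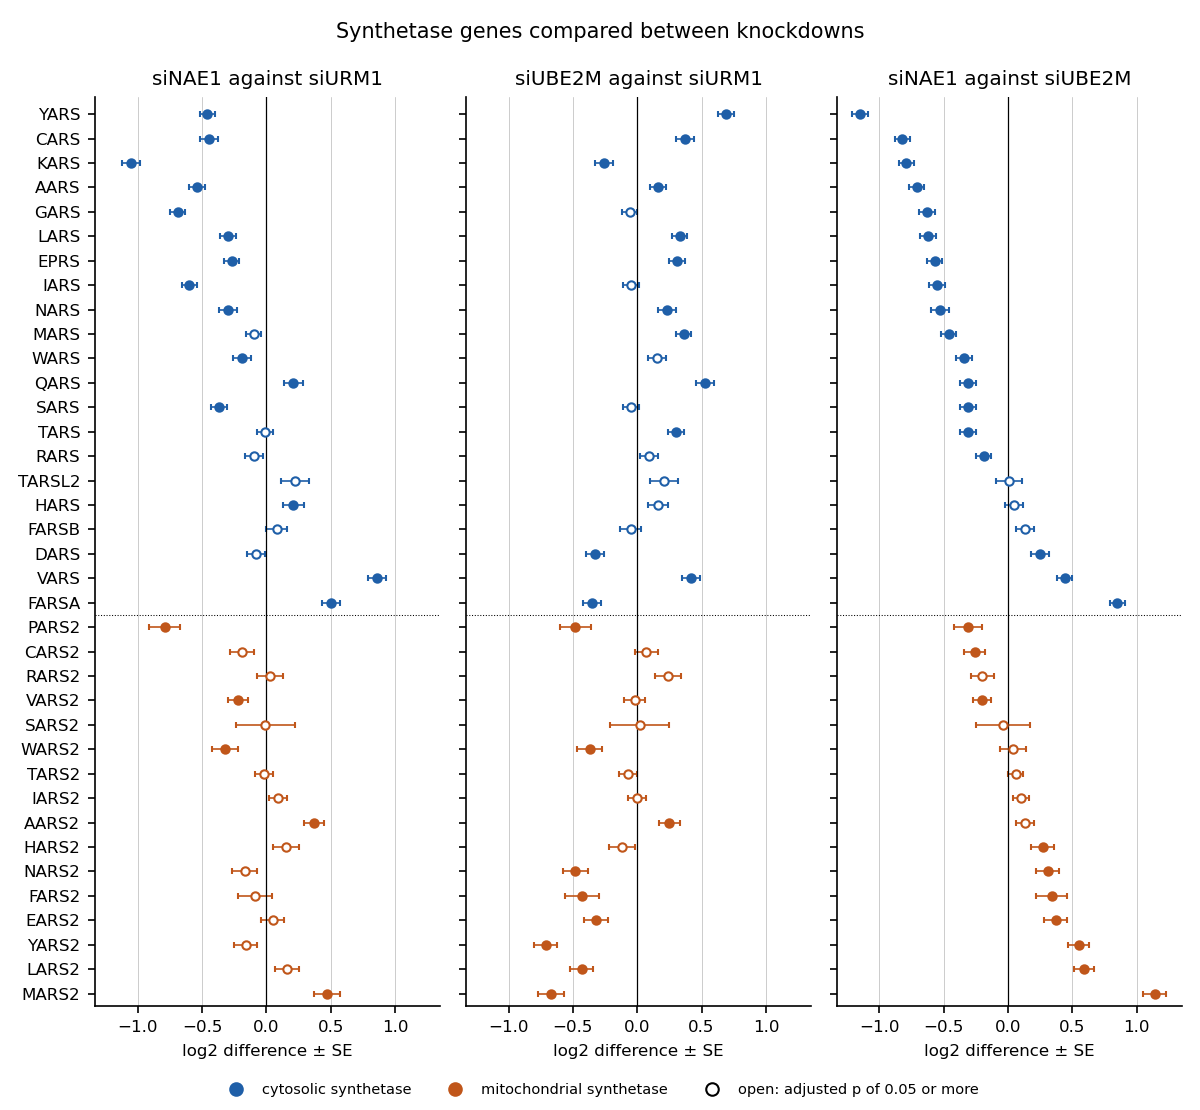
Log2 differences with SE between pairs of knockdowns for the cytosolic and mitochondrial synthetase genes, ordered by the siNAE1 minus siUBE2M value; a negative value means lower in the first-named knockdown, and filled points have an adjusted p under 0.05. Cytosolic genes lie mostly left of 0 in siNAE1 against siUBE2M (15 lower, 3 higher) and mostly right of 0 in siUBE2M against siURM1 (10 higher, 3 lower).

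Partners of tRNA charging that are not among the 41 genes were taken from a list of 18, of which 17 could be tested. EEF1G, which lies within a longer same-strand gene, was listed at 0 in all 11 libraries and was not tested. In siNAE1 cells 7 of the 17 were higher and 8 lower, in siUBE2M cells 4 and 6, and in siURM1 cells 3 and 5. Of all genes 27.6% were higher and 27.1% lower in siNAE1, 22.7% and 22.6% in siUBE2M, and 20.8% each way in siURM1 cells, so that several of these counts lie near the background. SEPSECS, the last enzyme in making selenocysteine on a seryl-tRNA charged by SARS, had the lowest fold change of the partners in each knockdown and is shown for that reason. It had 27.7, 26.8 and 31.4 CPM in control, 8.76, 7.41 and 6.10 in siNAE1, 14.0, 12.8 and 8.78 in siUBE2M, and 11.5 and 12.3 in siURM1 libraries. Every knockdown library lay below control, with changes of -1.94 ± 0.14, -1.27 ± 0.13 and -1.27 ± 0.15 (adjusted p = 5.2e-13, 2.1e-09 and 3.5e-08). PSTK, the kinase of the same pathway, stood at 49.9%, 49.7% and 70.5% of its control CPM (adjusted p = 8.2e-08, 9.6e-08 and 0.0037).

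DTD2, a deacylase that clears wrongly charged tRNA, was lower by -0.97 ± 0.11, -1.22 ± 0.11 and -1.01 ± 0.12, and its relative DTD1 in siNAE1 (-0.57 ± 0.10) and siUBE2M cells (-0.65 ± 0.10). QRSL1, a subunit of the enzyme that makes mitochondrial glutaminyl-tRNA, was lower in each knockdown (-0.35 ± 0.08, -0.45 ± 0.08 and -0.30 ± 0.09, the last lost without siURM1 replicate 2 with adjusted p = 0.15), while its partner subunits GATB and GATC passed the test in none. MTFMT, which formylates the mitochondrial initiator tRNA, was lower in siNAE1 (-0.41 ± 0.12) and siURM1 cells (-0.76 ± 0.13). These mitochondrial partners thus differed among themselves.

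Of the factors that carry charged tRNA to the ribosome, EEF1A1 was higher in each knockdown (0.37 ± 0.06, 0.45 ± 0.06 and 0.52 ± 0.06). Its exchange factors moved apart: EEF1D was higher in siNAE1 (0.62 ± 0.06) and siUBE2M cells (0.32 ± 0.06), and EEF1B2 lower in both (-0.22 ± 0.06 and -0.33 ± 0.06). The mitochondrial carrier TUFM was higher in siNAE1 (0.47 ± 0.06) and siURM1 cells (0.26 ± 0.07), as was its exchange factor TSFM (0.26 ± 0.10 and 0.40 ± 0.11), whose siNAE1 call was lost without control replicate 1 or 2 or siNAE1 replicate 2. TRNT1, which adds the end of the tRNA that is charged, was higher in siNAE1 cells (0.39 ± 0.11). EIF2AK4, the kinase that senses uncharged tRNA, was lower in siNAE1 (-0.33 ± 0.08, adjusted p = 0.00062) and higher in siUBE2M cells (0.53 ± 0.07, adjusted p = 6.1e-07). Its activator GCN1 was higher in both (0.42 ± 0.06 and 0.35 ± 0.06).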

How the data were processed

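PolyA RNA of HEK293T cells was sequenced in 11 libraries. For read cleaning the authors used fastp, for alignment HISAT2 2.0.5 (GRCh38) and for counting featureCounts 1.5.0-p3. The deposited counts per gene were not normalized. The deposited FPKM, which the authors derived with a listed gene length, served here for levels between genes. The study describes libraries that keep strand information, made with dUTP in the second cDNA strand. The strand setting of the counting is not given in the sources used here.

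Counts were analysed with edgeR 4.0.16 in R 4.3.3. After filterByExpr and TMM scaling (factors 0.949 to 1.06), 18368 genes entered 1 quasi-likelihood fit with 4 groups, whose biological coefficient of variation was 7.06%. P-values were Benjamini-Hochberg adjusted over all of these genes, and genes were called at 0.05. The study used DESeq2 and also asked for an absolute log2 fold change of 1, which was kept as a second rule. P-values measure the spread between the samples labelled as biological replicates.

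Of the 41 genes, CPM were given per library for those past the second rule, for the 2 lowest and 2 highest fold changes of each knockdown among cytosolic and among mitochondrial genes, for EPRS, KARS and QARS, and for the 2 smallest adjusted p of each comparison between knockdowns. ATF4 was given as context, and SEPSECS was added after its values were seen. Values of 1 gene are not reported here by name, in text or plots, although it is part of the counts, medians and sums. The genes and lists were chosen with earlier results of these data known. The fit was first tested on simulated data. Alternatives were DESeq2 1.42.0, RLE scaling, other filters on low counts, 2 groups per fit, the replicate number as a block, and leaving out each library. Plots were drawn with matplotlib 3.10.9 in Python 3.11.15 with pandas 2.3.3.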

Additional observations from a re-analysis of the deposited data

How the results depend on the processing

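DESeq2, RLE scaling, a filter of at least 10 counts in every library and 2 groups per fit left every count of called synthetases within 1.5 times its value, and no gene with per-library values that passed the test in the main analysis changed its direction under any alternative run. Without a filter on low counts, 1 gene (HARS) was higher by at least 2-fold in siNAE1 cells instead of 0, and 1 mitochondrial gene instead of 2 was lower in siURM1 cells. Leaving out 1 library at a time gave 0 to 1 and 1 to 2 for these counts, 2 to 6 mitochondrial genes higher in siURM1 cells, and a siURM1 median of the cytosolic genes from -0.40 to -0.29. With the 2-fold threshold added, 5 cytosolic genes were lower in siNAE1 cells and 0 higher, 0 cytosolic genes were called in the other knockdowns, and 0 mitochondrial genes in any. With TGATGCAA alone, 0 mitochondrial windows held the motif instead of 1. Values near 0 that did not pass the test changed sign, such as VARS in siNAE1 cells (-0.01, and 0.03 without siNAE1 replicate 1) and PARS2 in siURM1 cells (-0.08, and 0.03 without siURM1 replicate 1). Deviations of libraries with the same replicate number correlated by -0.0657 to 0.0787, and those with different numbers by -0.101 to 0.073. No shared effect of the number was thus seen, but this cannot show whether libraries with the same number were prepared together. With the replicate block 15 cytosolic genes were lower in siNAE1 and 12 in siUBE2M cells, as without it. At this depth SARS2 and AARSD1, the genes with the lowest counts, had SEs of 0.18 to 0.23 against control, so that small changes of these could not be seen.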
